A study of Mus musculus with 10 samples.

Results

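DNA replication genes were followed through naïve, effector memory and memory T cells of the mouse. A fixed list of 38 genes was used, chosen by function: factors that license and fire replication origins, the subunits of the MCM helicase, polymerases and primase, clamp and single-strand binding factors, enzymes of nucleotide supply, and a few chromatin and repair factors of S phase. The brightest probe set of a gene, averaged over all 10 arrays, stands for it, and 37 of the 38 have a probe set among the 18193 genes tested. *Chaf1a*, the large subunit of the chromatin assembly factor, is the member with no value here.

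Each group was measured on 2 arrays. Naïve T cells, CD4+ (sorted as CD62L+CD44- cells with TCRβ and CD4) or CD8+, came from the spleen of mice that the authors describe as wild-type C57BL/6. The sample labels also give *Foxo1* genotypes that are unlike within a group. These were not used, so whether the arrays of a group differ in genotype is not settled here. CD4+ effector cells (called TEM cells below) and CD4+ memory cells had been grown from naïve CD4+ cells, and CD8+ TEM cells from naïve CD8+ cells, until day 25. All 3 cultured groups had received IL-2 and, each week, irradiated B lymphoma cells positive for LMP1/2A, a mouse line that carries both EBV proteins from *Rosa26* alleles opened by Cγ1-Cre and was passed through immunodeficient hosts. Naïve cells were not cultured, so time in culture, IL-2 and contact with lymphoma cells cannot be told apart in these comparisons. Whether 2 arrays of a group are separate animals is not stated, and p-values measure the spread between these arrays, which may be technical. The arrays report RNA of all sorted cells together, so that a larger share of cells in S phase and more transcript per cell cannot be told apart.

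Before a cell divides, the origin recognition complex with CDC6 and CDT1 loads the MCM2 to MCM7 ring onto DNA in G1, and geminin blocks CDT1 once S phase has begun. CDC45, the GINS complex and MCM10 turn the loaded ring into a working helicase, after which primase, DNA polymerases, the PCNA clamp and its loader copy both strands. Quiescent naïve T cells keep much of this program low, and activated T cells turn it on together with ribonucleotide reductase and thymidine kinase, which feed the pool of deoxynucleotides. Many of these genes are known targets of E2F factors, which bind short sites near transcription starts.

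Promoters of 4 members whose RNA rose are shown because they hold such an E2F type site. RefSeq (GRCm38.p6) gives a promoter window, from 250 bases before to 50 bases after the start, for 32 of the 38 members, of which 4 have more than 1 window. Both strands were searched for TTTCGCGC, TTTGGCGC and TTTCCCGC (E2F type), for CCAAT (NF-Y type) and for TTTGAA (CHR type). Below, the 250 bases before the start are printed 5′ to 3′ along the gene, with matches to E2F type motifs and to CCAAT in capitals, read on either strand (GCGGGAAA, GCGCCAAA and ATTGG are reverse matches). They lie at chr8:75109259-75109508 (plus strand) for *Mcm5*, chr1:128359706-128359955 (minus) for *Mcm6*, chr11:98907901-98908150 (plus) for *Cdc6* and chrX:93632156-93632405 (minus) for *Pola1*.
Mcm5: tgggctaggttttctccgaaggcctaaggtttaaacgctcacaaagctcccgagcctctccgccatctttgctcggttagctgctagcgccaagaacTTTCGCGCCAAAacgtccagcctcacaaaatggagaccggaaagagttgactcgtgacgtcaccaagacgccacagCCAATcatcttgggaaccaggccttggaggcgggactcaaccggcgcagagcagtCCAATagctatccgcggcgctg
Mcm6: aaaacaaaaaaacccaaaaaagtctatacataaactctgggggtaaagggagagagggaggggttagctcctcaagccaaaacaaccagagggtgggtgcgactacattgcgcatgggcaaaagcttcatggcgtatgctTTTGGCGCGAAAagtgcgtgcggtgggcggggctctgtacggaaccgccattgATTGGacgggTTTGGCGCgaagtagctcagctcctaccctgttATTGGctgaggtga
Cdc6: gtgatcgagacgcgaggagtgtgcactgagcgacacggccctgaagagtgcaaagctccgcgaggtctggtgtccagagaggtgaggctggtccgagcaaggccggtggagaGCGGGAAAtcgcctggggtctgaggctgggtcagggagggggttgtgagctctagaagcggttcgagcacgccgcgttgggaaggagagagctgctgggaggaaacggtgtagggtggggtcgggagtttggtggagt
Pola1: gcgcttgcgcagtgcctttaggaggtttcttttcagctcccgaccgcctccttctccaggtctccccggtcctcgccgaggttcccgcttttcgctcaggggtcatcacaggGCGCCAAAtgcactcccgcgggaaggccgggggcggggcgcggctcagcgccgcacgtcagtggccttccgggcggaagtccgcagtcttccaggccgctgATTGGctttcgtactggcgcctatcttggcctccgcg

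In *Mcm5* and *Mcm6* a TTTCGCGC match on one strand overlaps a TTTGGCGC match on the other. An E2F type match was found in 12 of the 32 members with a window (37.5%), against 1.84% of all 32851 promoters of this length and 2.41% of the 21263 of protein-coding genes. The other members with a match are *Cdt1*, *Lig1*, *Mcm3*, *Mcm7*, *Orc1*, *Pold1*, *Pole2* and *Rfc3*. CCAAT was found in 20 of 32 members (62.5%, against 37.4% of all promoters) and TTTGAA in 4 (12.5%, against 17.9%). In these shares a member counts if any of its windows matches, whereas the background counts single windows, so the units are unlike. *Lig1* and *Mcm7* have windows with and without an E2F type match. All of these are descriptions of letters in a window, and no binding was measured. Members with and without an E2F type match are set side by side after the comparisons below.

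The deposited values are RMA signals on the log2 scale, and every level below is such a signal. Array medians lie between 4.65 and 4.75. Differences are log2 fold changes, where 1 is 2-fold, tested with limma in a model of all arrays, and p-values were adjusted by Benjamini-Hochberg across the genes tested. A gene is called higher or lower where the adjusted p is under 0.05. Further probe sets of a gene are called by limma p-values adjusted separately, which differ somewhat from those of the genes. With that adjustment the used probe sets of *Orc1* in CD4+ TEM cells (adjusted p = 0.0512) and *Mcm2* in memory cells (0.0563) are not called. The same holds for *Dut* between CD4+ TEM and memory cells (0.0613). Levels of different probe sets are not compared with each other, since each probe set has its own brightness. The table holds no detection calls, so whether a dim signal lies above background was not tested. A group mean under 6 was taken as dim, which holds for 10 members in naïve CD4+ cells (*Brca1*, *Cdc45*, *Cdc6*, *Gins1*, *Gins2*, *Mcm10*, *Pole*, *Rfc3*, *Tk1* and *Tyms*), for 6 in naïve CD8+ cells (*Cdc45*, *Gins2*, *Mcm10*, *Orc1*, *Tk1* and *Tyms*), for *Orc1* and *Tyms* in memory cells and for *Tyms* in both TEM groups. Sizes and ranks of changes from a dim group are those of the RMA signals and may not be those of the RNA.

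Label checks and possible admixture bear on all of the day 25 groups. *Cd3e*, a chain of the T cell receptor complex, read 12.72 to 13.29 on all arrays, *Cd4* 11.50 to 11.89 in the CD4+ groups and *Cd8b1* 10.98 to 11.54 in the CD8+ groups. Of 13 B cell markers 12 were measured, and their mean level was 3.79 to 3.90 in naïve CD4+ cells, 5.62 to 5.94 in CD4+ TEM cells, 6.0 to 6.45 in memory cells, 4.31 to 5.50 in naïve CD8+ cells and 5.60 to 6.0 in CD8+ TEM cells. Of these markers, 5 were called higher and none lower in CD4+ TEM cells, 5 higher and 1 lower in CD8+ TEM cells, and 7 higher and 1 lower in memory cells. *Pax5* stayed between 3.58 and 4.33 on every array and *Ms4a1* between 3.15 and 7.02, with the highest value on naïve CD8+ replicate 2. *Cd79b* rose from 4.05 and 4.64 in naïve CD4+ cells to 8.77 and 8.41 in CD4+ TEM cells, and *Ebf1*, a B lineage transcription factor, by 7.12 in CD4+ TEM, 7.19 in memory and 6.16 in CD8+ TEM cells. The coreceptor of the other lineage was called higher in both TEM groups: *Cd8a* read 5.16 and 4.99 in naïve CD4+ and 7.67 and 8.17 in CD4+ TEM cells (2.85, adjusted p = 0.00126), and *Cd4* read 4.30 and 4.10 in naïve CD8+ and 6.51 and 6.89 in CD8+ TEM cells (2.50, adjusted p = 1.37e-05). These were the single increases among 10 measured T cell genes, and *Cd2*, *Cd5* and *Cd247* were called lower in both TEM groups, the latter 2 also in memory cells. Further, 1 of 8 myeloid genes higher and 2 (CD4+ groups) or 3 (CD8+ TEM) lower. None of 3 erythroid and 3 NK genes was called. RNA quality moved with the groups as well: *Gapdh* control probe sets read 2.42 to 2.75 higher at the 3′ than at the 5′ end in the naïve groups and 0.91 to 1.72 higher in the day 25 groups, whereas the gap of the *Actb* controls overlapped between naïve (1.24 to 2.13) and day 25 arrays (0.77 to 2.10). The part of B cell RNA, of cells of the other lineage or of RNA quality in the changes below was not tested.

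CD4+ TEM cells carried more RNA of most replication genes than naïve CD4+ cells. Of the 37 measured members 28 were called higher and 1 lower, where 16.4% of all genes were called higher and 10.1% lower. Of all genes, only 8918 had a mean of at least 6 over the arrays. Among these, 30 of 36 members were called in either direction, against 47.3% of such genes. The 37 members had a median change of 1.52, against 0.02 over all genes, and 26 were both called and at least 2-fold up (11.8% of all genes). For 35 members both TEM arrays lay above both naïve arrays, as for 33.8% of all genes. The 4 largest changes were those of *Tk1* in nucleotide supply, *Brca1*, a repair factor that acts at stalled forks, *Pole* among the polymerases and *Cdc6* in licensing, all of them from dim naïve signals.

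**Figure D1:**
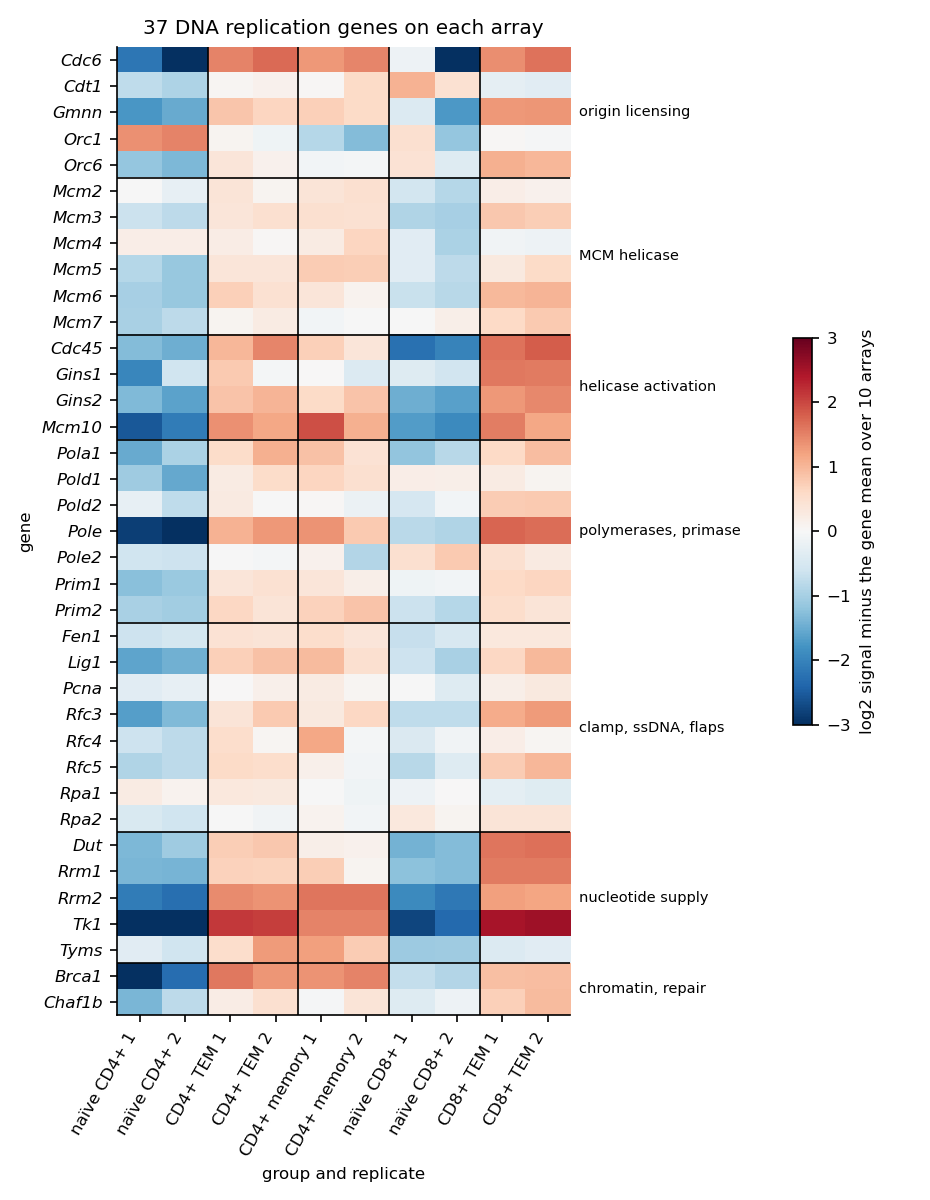
Each row is a replication gene and each column an array, with color for the log2 signal minus the gene's mean over the 10 arrays (scale held at -3 to 3) and lines between groups and between roles. Most rows are blue in naïve and red in day 25 columns, while *Orc1* runs the other way in CD4+ cells and *Cdc6* differs between the 2 naïve CD8+ arrays.

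*Tk1* encodes cytosolic thymidine kinase, which salvages thymidine for DNA synthesis. Its signal was 3.41 and 3.79 in naïve CD4+, 9.26 and 9.22 in CD4+ TEM, 8.64 and 8.62 in CD4+ memory, 4.38 and 4.80 in naïve CD8+ and 9.61 and 9.68 in CD8+ TEM cells. No naïve array comes near a day 25 array, and both naïve groups are dim. The change was 5.64 in CD4+ TEM (SE 0.19, adjusted p = 6.42e-07), 5.03 in CD4+ memory (SE 0.19, adjusted p = 1.7e-06) and 5.05 in CD8+ TEM cells (SE 0.19, adjusted p = 8.64e-07).

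*Rrm2* encodes the small subunit of ribonucleotide reductase, which makes deoxynucleotides from ribonucleotides and is limiting in S phase. It read 8.79 and 8.61 in naïve CD4+, 12.29 and 12.24 in CD4+ TEM, 12.48 and 12.49 in memory, 8.98 and 8.74 in naïve CD8+ and 12.12 and 12.07 in CD8+ TEM cells. The 2 naïve groups lie close together and all 6 day 25 arrays lie more than 3 log2 units above them. Changes were 3.56 (SE 0.14, adjusted p = 1.42e-06), 3.78 and 3.23 in CD4+ TEM, memory and CD8+ TEM cells. Its large partner *Rrm1* read 7.78 and 7.77 in naïve CD4+, 9.85 and 9.83 in CD4+ TEM, 9.89 and 9.24 in memory, 7.93 and 7.85 in naïve CD8+, and 10.71 and 10.72 in CD8+ TEM cells. All 3 changes of *Rrm1* were called, at 2.07, 1.79 and 2.82. A further *Rrm1* probe set moved the other way in CD4+ cells, by -1.31 in TEM and -1.01 in memory cells with neither called, and the mean of all *Rrm1* probe sets was 0.67 and 0.61 higher, with no call.

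The other enzymes of nucleotide supply rose as well, and all 5 of this group were called higher in CD4+ TEM and in memory cells and 4 of 5 in CD8+ TEM cells. *Dut* encodes dUTPase, which keeps uracil out of DNA. It read 9.08 and 9.37 in naïve CD4+, 11.17 and 11.24 in CD4+ TEM, 10.60 and 10.55 in memory, 9.02 and 9.14 in naïve CD8+ and 12.04 and 12.09 in CD8+ TEM cells, so that the 3 day 25 groups are each apart from the others. The day 25 groups are not apart for a second *Dut* probe set, at 7.49 and 7.96 in CD4+ TEM, 6.95 and 7.58 in memory and 8.34 and 7.96 in CD8+ TEM cells. *Tyms*, thymidylate synthase, had dim probe sets, none above 6.15. Its signal was 4.53 and 4.28 in naïve CD4+ and 5.39 and 6.15 in CD4+ TEM cells (change 1.36, adjusted p = 0.00579), 6.11 and 5.64 in memory cells, and 3.77 and 3.81 against 4.47 and 4.54 in CD8+ cells (0.72, adjusted p = 0.0637). Further *Tyms* probe sets, also dim, rose by 0.93 and 0.66 in CD8+ TEM cells, both called.

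In origin licensing, *Cdc6* and *Gmnn* rose in all 3 day 25 groups. *Cdc6*, the ATPase that recruits MCM rings, read 5.78 and 4.94 in naïve CD4+, 9.43 and 9.64 in CD4+ TEM and 9.24 and 9.40 in memory cells. In CD8+ cells it read 7.78 and 4.32 in the naïve state, the widest pair of any member, and 9.33 and 9.58 in TEM cells. The naïve CD8+ pair widens the error of each *Cdc6* comparison to an SE of 0.90, and the changes were 4.17 (adjusted p = 0.0103), 3.96 (adjusted p = 0.0154) and 3.4 (adjusted p = 0.0179). The CD4+ TEM call was lost without naïve CD4+ replicate 2 (3.76) or TEM replicate 2 (4.07), the memory call without naïve CD4+ replicate 2 (3.54) or memory replicate 2 (3.88), and the CD8+ call without TEM replicate 1 (3.53) or 2 (3.28), at adjusted p between 0.0544 and 0.0958.

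*Gmnn* encodes geminin, the inhibitor of CDT1. It read 7.72 and 7.97 in naïve CD4+, 10.30 and 10.12 in CD4+ TEM, 10.20 and 10.04 in memory, 9.07 and 7.76 in naïve CD8+ and 10.78 and 10.80 in CD8+ TEM cells. Its changes were 2.36, 2.27 and 2.38 in the 3 groups, and the difference between CD4+ and CD8+ TEM cells was -0.02 (95% interval -1.19 to 1.16). *Orc6*, a subunit of the origin recognition complex, was called higher in all 3 groups too, by 1.5, 1.17 and 1.0, and its CD8+ call was lost without TEM replicate 1 (0.97) or 2 (1.04) and its memory call without naïve CD4+ replicate 2 (1.07).

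*Cdt1*, which brings the MCM ring to the origin, moved in opposite directions in the 2 lineages. In CD4+ cells it read 10.38 and 10.21 in the naïve state, 11.19 and 11.27 in TEM and 11.18 and 11.71 in memory cells. In CD8+ cells it read 12.17 and 11.60 in the naïve state and 10.87 and 10.80 in TEM cells. Both CD8+ TEM arrays thus lie below both naïve CD8+ arrays and below the CD4+ TEM arrays, while naïve CD8+ cells lie above naïve CD4+ cells. *Cdt1* was called higher in CD4+ TEM cells (0.93, SE 0.23, adjusted p = 0.0193) and lower in CD8+ TEM cells (-1.05, SE 0.23, adjusted p = 0.0075). The CD8+ change stayed called in all 15 alternatives tried, whereas the CD4+ call was lost when any 1 of the 4 CD4+ arrays was left out (0.84 to 1.02). In memory cells *Cdt1* rose by 1.15, and this call was lost without naïve CD4+ replicate 2 (1.06). A second *Cdt1* probe set, with levels of 7.65 to 9.67, changed by 0.90 in CD4+ and by -0.93 in CD8+ cells.

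*Orc1*, the largest subunit of the origin recognition complex, was the only member called lower in CD4+ cells, and its probe sets disagree. The probe set used read 7.66 and 7.76 in naïve CD4+, 6.37 and 6.15 in TEM, 5.43 and 4.98 in memory, 6.76 and 5.11 in naïve CD8+ and 6.32 and 6.24 in CD8+ TEM cells, changes of -1.45 (adjusted p = 0.0476), -2.50 (adjusted p = 0.00516) and 0.34. The dimmer *Orc1* probe set read 3.95 and 3.09 in naïve CD4+, 6.65 and 5.94 in TEM, 4.7 and 2.91 in memory, 5.09 and 3.26 in naïve CD8+ and 7.26 and 7.20 in CD8+ TEM cells, changes of 2.78, 0.28 and 3.06. With that probe set *Orc1* rose in both TEM groups, so no direction is given for this gene. Leaving out any of the 4 CD4+ arrays also ended the call for the TEM decrease (-1.34 to -1.56).

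**Figure D2:**
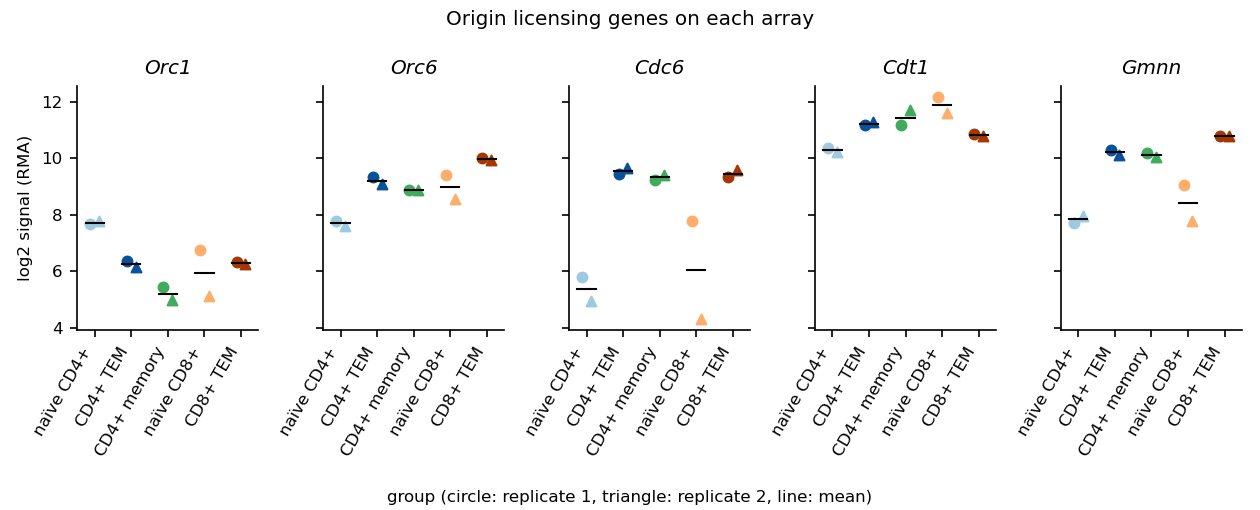
Log2 signals of the 5 licensing genes are shown by group, with circles for replicate 1, triangles for replicate 2 and a line at the mean. *Cdt1* is highest in naïve CD8+ cells, and naïve CD8+ replicate 1 lies above replicate 2 for all 5 genes, by 3.46 for *Cdc6*.

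The MCM ring is the core of the replicative helicase. Its 6 subunits are needed together, and 4 were called higher in CD4+ TEM, 5 in memory and 5 in CD8+ TEM cells, with medians of 1.09, 1.0 and 0.93. For the probe sets used, *Mcm6* changed most of the 6 in TEM cells, with 9.76 and 9.62 in naïve CD4+, 11.46 and 11.21 in CD4+ TEM, 11.11 and 10.86 in memory, 10.09 and 9.91 in naïve CD8+ and 11.72 and 11.77 in CD8+ TEM cells (changes 1.65, 1.30 and 1.75). The rank depends on that choice, since in CD8+ TEM cells other probe sets rose by 2.55 (*Mcm5*), 2.43 (*Mcm3*) and 2.29 (*Mcm6*). *Mcm4* was already bright in naïve CD4+ cells, at 11.48 and 11.49, and read 11.50 and 11.32 in CD4+ TEM and 11.54 and 11.94 in memory cells (changes -0.08, 95% interval -0.59 to 0.44, and 0.25, interval -0.26 to 0.77). In CD8+ cells it read 10.95 and 10.34 in the naïve state and 11.18 and 11.14 in TEM cells (0.52, interval 0.00 to 1.03). That change was called without naïve CD8+ replicate 1, at 0.83.

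*Mcm3*, *Mcm5*, *Mcm6* and *Mcm7* were called in all 3 groups, by 0.60 to 1.76. *Mcm2* was 10.66 and 10.43 in naïve CD4+, 11.07 and 10.75 in CD4+ TEM, 11.07 and 11.16 in memory, 10.13 and 9.83 in naïve CD8+ and 10.88 and 10.80 in CD8+ TEM cells. A second *Mcm2* probe set rose by 0.55 in CD4+ TEM, 0.67 in memory and 1.21 in CD8+ TEM cells, all called. For the probe set used, the changes were 0.36 (not called), 0.57 (adjusted p = 0.0477) and 0.85 (adjusted p = 0.00477). The memory call was lost when any of its 4 arrays was left out (0.46 to 0.68). *Mcm7* in CD8+ cells (0.60) was not called without naïve replicate 1 (0.52) or TEM replicate 2 (0.51).

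All 4 activators of the helicase, *Mcm10*, *Cdc45*, *Gins1* and *Gins2*, were called higher in both TEM groups, with medians of 2.50 in CD4+ and 3.02 in CD8+ cells, where the MCM subunits had 1.09 and 0.93. *Mcm10*, which binds the loaded ring when origins fire, read 3.85 and 4.28 in naïve CD4+, 7.76 and 7.55 in CD4+ TEM, 8.31 and 7.45 in memory, 4.71 and 4.48 in naïve CD8+ and 7.92 and 7.55 in CD8+ TEM cells. *Cdc45*, which completes the active helicase with GINS, read 5.52 and 5.34 in naïve CD4+, 7.82 and 8.28 in CD4+ TEM, 7.52 and 7.18 in memory, 4.58 and 4.82 in naïve CD8+ and 8.45 and 8.63 in CD8+ TEM cells. Its change was thus larger in CD8+ (3.84, SE 0.20) than in CD4+ TEM cells (2.62, SE 0.20), from a lower naïve level. A second *Cdc45* probe set, with levels of 5.20 to 6.40, changed by 0.02 in CD4+ and -0.03 in CD8+ TEM cells, neither called. The GINS subunit *Gins2* changed by 2.39, 2.18 and 2.91. *Gins1* changed by 1.64, 1.07 and 2.06 in CD4+ TEM, memory and CD8+ TEM cells, with the memory change not called. Its naïve CD4+ arrays differ by more than 2-fold (5.20 and 6.56), and the CD4+ TEM call was lost without naïve CD4+ replicate 1 (0.96) or TEM replicate 1 (1.22), while the memory change was called without naïve CD4+ replicate 2 (1.75).

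Among polymerase and primase genes 5 of 7 were called higher in each of the 3 groups. *Pole*, the catalytic subunit of the leading strand polymerase, read 5.33 and 4.79 in naïve CD4+, 9.20 and 9.45 in CD4+ TEM, 9.49 and 8.94 in memory, 7.34 and 7.25 in naïve CD8+ and 9.91 and 9.83 in CD8+ TEM cells. It rose by 4.27 (SE 0.24, adjusted p = 7.35e-06), 4.15 and 2.57. Its accessory subunit *Pole2* behaved otherwise, with 7.74 and 7.73 in naïve CD4+, 8.32 and 8.29 in CD4+ TEM, 8.48 and 7.46 in memory, 8.83 and 9.12 in naïve CD8+ and 8.83 and 8.60 in CD8+ TEM cells. None of its changes was called (0.57, 0.23 and -0.26), although the memory change was without memory replicate 2 (0.74).

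*Pold1*, the catalytic subunit of the lagging strand polymerase, was called in the CD4+ groups and not in CD8+ TEM cells. It read 9.96 and 9.50 in naïve CD4+, 11.29 and 11.58 in CD4+ TEM, 11.68 and 11.51 in memory, 11.24 and 11.22 in naïve CD8+ and 11.29 and 11.11 in CD8+ TEM cells. The changes were 1.71 (adjusted p = 0.000355), 1.87 (adjusted p = 0.000284) and -0.03 (95% interval -0.47 to 0.42). A second probe set of *Pold1* rose by 1.79, 2.26 and, in CD8+ cells, by 0.68, where it was called. *Pola1*, which extends primers, and the primase subunits *Prim1* and *Prim2* were called in all 3 groups, by 0.74 to 2.03. *Pold2*, an accessory subunit, was called only in CD8+ TEM cells (1.07, against 0.63 and 0.44), and the difference of 0.44 between the TEM changes was not called (adjusted p = 0.457). In CD4+ TEM cells it was called without naïve replicate 1 (0.89).

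Of 8 genes of the clamp, single-stranded DNA and lagging strand, 4 were called higher in each TEM group and 6 in memory cells. *Lig1*, which seals nicks between lagging strand pieces, changed by 2.30, 2.22 and 1.62, and *Rfc3* and *Rfc5*, subunits of the clamp loader, by 0.88 to 2.06, all of them called. *Fen1*, which cuts the flaps of these pieces, read 11.91 and 12 in naïve CD4+ and 12.97 and 12.92 in CD4+ TEM cells and rose by 0.99, 1.02 and 0.91. *Rfc5* in memory cells was not called without naïve CD4+ replicate 1 (0.83) or memory replicate 1 (0.77).

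*Pcna*, the sliding clamp and a common marker of cycling cells, was bright everywhere. It read 12.05 and 12.14 in naïve CD4+, 12.40 and 12.54 in CD4+ TEM, 12.64 and 12.45 in memory, 12.38 and 12 in naïve CD8+ and 12.56 and 12.67 in CD8+ TEM cells. The day 25 arrays lay above the naïve arrays of their lineage, but no change was called (0.37, 0.45 and 0.42), save for 0.61 in CD8+ TEM cells without naïve replicate 1. *Rpa1*, the large subunit of the single-strand binding protein, read 12.78 and 12.63 in naïve CD4+, 12.85 and 12.81 in CD4+ TEM, 12.51 and 12.39 in memory, 12.37 and 12.54 in naïve CD8+ and 12.23 and 12.16 in CD8+ TEM cells, with no call (0.13, -0.26 and -0.26). Its partner *Rpa2* read 9.10 and 8.96 in naïve CD4+, 9.53 and 9.44 in CD4+ TEM, 9.65 and 9.46 in memory, 9.87 and 9.63 in naïve CD8+ and 9.95 and 9.94 in CD8+ TEM cells. *Rpa2* changed by 0.46 (adjusted p = 0.0519), 0.52 (adjusted p = 0.0356) and 0.20, and the memory call was lost without either naïve CD4+ array (0.45 and 0.59) or memory replicate 1 (0.42). The dimmer *Rpa2* probe set changed by 0.30, -0.81 and, in CD8+ TEM cells, by 1.64, where alone it was called. For the probe set used, *Rfc4* changed by 1.0, 1.26 and 0.40, called only in memory cells, whose arrays read 10.95 and 9.75. That call was lost without naïve CD4+ replicate 1 (1.34) or 2 (1.17) or memory replicate 1 (0.66). The dimmer *Rfc4* probe set rose by 0.91 in CD4+ TEM, 0.84 in memory and 1.34 in CD8+ TEM cells, all called.

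*Brca1* and *Chaf1b*, a subunit of the factor that places histones behind the fork, complete the members. *Brca1* read 3.59 and 4.98 in naïve CD4+, 8.85 and 8.58 in CD4+ TEM, 8.60 and 8.74 in memory, 6.55 and 6.38 in naïve CD8+ and 8.16 and 8.20 in CD8+ TEM cells. It rose by 4.43 (SE 0.38, adjusted p = 7.6e-05), 4.38 and 1.71. The day 25 groups lie close together and the naïve groups far apart. The other 3 *Brca1* probe sets are dim, none above 6.26, and changed by -0.08 to 0.58 in CD4+ TEM cells with no call, while the brightest of these rose by 1.33 in memory cells (called). In CD8+ TEM cells the brightest of these rose by 1.0 and the next by 1.21, both called, and the dimmest changed by -0.02. *Chaf1b* rose by 1.44, 1.26 and 1.11, and its CD8+ call was lost without TEM replicate 2 (0.99).

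**Figure D3:**
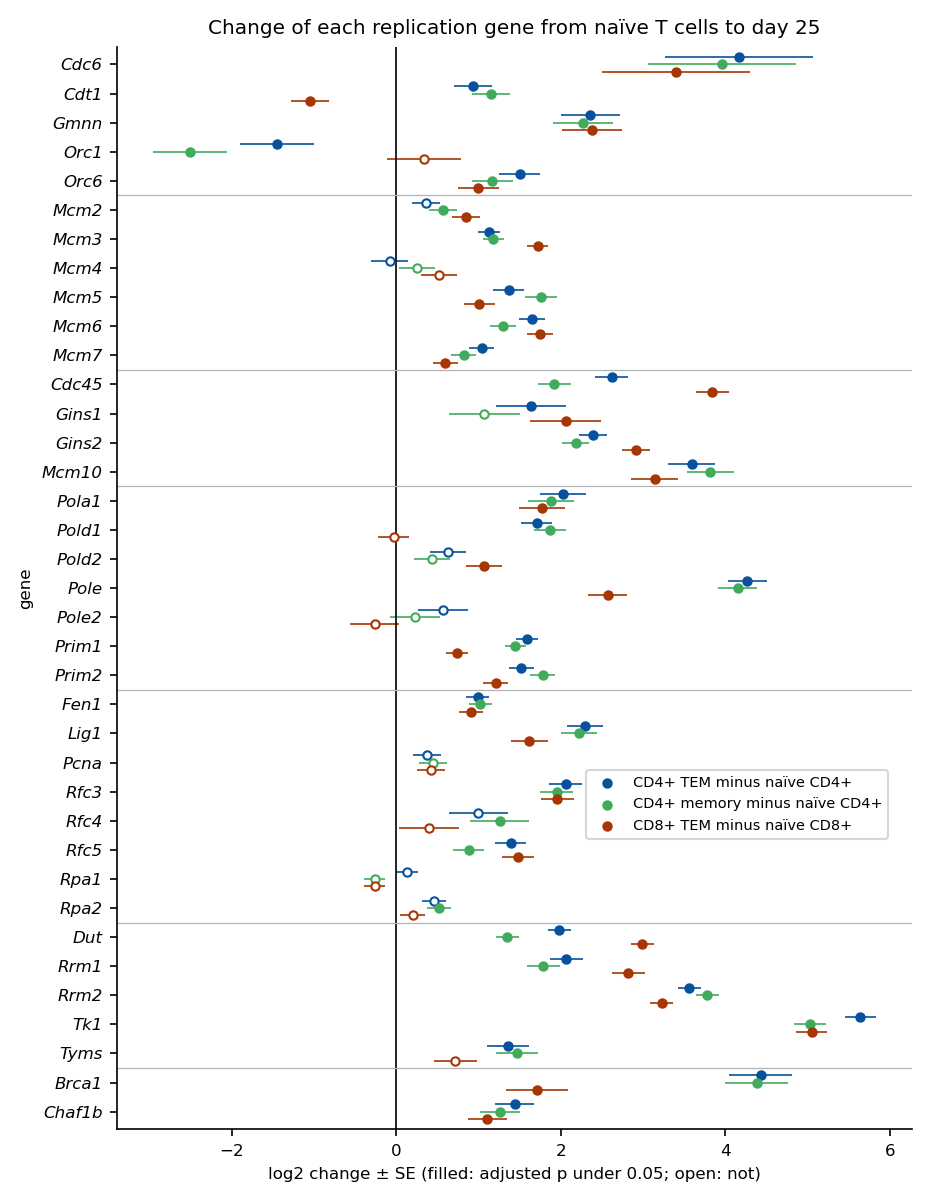
Log2 changes with their SE are shown for each member, grouped by role, in CD4+ TEM and memory cells against naïve CD4+ cells and in CD8+ TEM against naïve CD8+ cells, with filled points for adjusted p under 0.05. *Tk1* lies at 5.03 to 5.64 in all 3, *Cdt1* on both sides of 0, and *Mcm4*, *Pcna* and *Rpa1* near 0.

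In CD8+ TEM cells 27 of 37 members were called higher and 1 lower than in naïve CD8+ cells, where 20.9% of all genes were called higher and 17.2% lower. Among genes with a mean of at least 6 over the arrays, 29 of 36 members were called in either direction, against 63.2% of such genes. The median member change was 1.21, against 0.06 over all genes. Changes were largest for *Tk1* (5.05), *Cdc45* (3.84), *Cdc6* (3.4) and *Rrm2* (3.23), and the member called lower was *Cdt1*. For 32 members both TEM arrays lay above both naïve arrays (38.9% of all genes), and in the licensing group 3 of 5 were called higher. Of the 28 members called higher in CD4+ TEM and the 27 in CD8+ TEM cells, 25 were shared, 89.3% and 92.6% of these lists, where 74.5% and 58.4% of the calls over all genes were shared. These comparisons have no array in common, and the difference in shares was not tested. With the probe sets used, *Cdt1*, *Pold1* and *Tyms* were called higher in CD4+ TEM cells and not in CD8+ TEM cells, and *Mcm2* and *Pold2* the reverse. Other probe sets were called where these were not: *Mcm2* by 0.55 in CD4+ TEM cells, and *Pold1* by 0.68 and *Tyms* by 0.93 and 0.66 in CD8+ TEM cells. The 2 naïve CD8+ arrays differ in licensing genes, where replicate 1 is the higher (mean 9.04 against 7.47) and replicate 2 the nearer to naïve CD4+ cells (7.70 and 7.87), and in B cell (mean 4.31 on replicate 1, 5.50 on replicate 2) and myeloid markers (4.93 and 6.40). Without replicate 2, 27 were called higher and 1 lower, and without replicate 1 the counts were 29 and 1, with *Mcm4* (0.83), *Orc1* (1.17) and *Pcna* (0.61) added and *Mcm7* lost.

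CD4+ memory cells, which share their naïve control arrays with CD4+ TEM cells, had 30 members called higher and 1 lower, where 13.5% of all genes were called higher and 9.78% lower. Among genes with a mean of at least 6 over the arrays, 30 of 36 members were called in either direction, against 43.9% of such genes. The median change of all 37 was 1.35, against 0.08 over all genes, with *Tk1* (5.03), *Brca1* (4.38), *Pole* (4.15) and *Cdc6* (3.96) at the top and *Orc1* the member called lower. In the direct comparison of the 2 day 25 CD4+ groups, few genes of any kind were called. Of the members, 1 of 37 was called higher in TEM than in memory cells and none lower, against 3.89% and 1.64% of all genes. Among genes with a mean of at least 6 over the arrays, 1 of 36 members was called, against 9.12% of such genes. The member called was *Dut* (0.63, SE 0.14, adjusted p = 0.0447), and it was no longer called without any 1 of the 4 arrays (0.59 to 0.67). Without memory replicate 1, *Pole2* was called instead, at 0.85. At an unadjusted p under 0.05, 6 members were higher in TEM cells and none lower. The share of all genes at this threshold was not computed, so no trend of the members is read from this count. The median difference was 0.11, members ranged from -0.39 for *Mcm5* to 1.06 for *Orc1*, and *Tk1* was 0.61 higher in TEM cells (95% interval 0.18 to 1.04, adjusted p = 0.111).

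CD8+ and CD4+ TEM cells were also compared at day 25, and 4 of 37 members were called. *Rrm1* (0.87, adjusted p = 0.0458) and *Dut* (0.86, adjusted p = 0.0156) were higher in CD8+ TEM cells, and *Tyms* (-1.26, adjusted p = 0.0323) and *Rpa1* (-0.64, adjusted p = 0.0336) lower, against 3.53% of all genes higher and 2.19% lower. *Tyms* is dim in both groups. Among genes with a mean of at least 6 over the arrays, 3 of 36 members were called, against 12.3% of such genes. Averaging the probe sets of a gene gave 3 calls, none of them among these 4, and the most variable probe set gave 7, which include 2 of them. Each call was lost when single TEM arrays were left out: *Rrm1* (0.86 to 0.88), *Dut* (0.83 to 0.90) and *Rpa1* (-0.60 to -0.67) without any of the 4, and *Tyms* without CD4+ replicate 2 (-0.88) or CD8+ replicate 1 (-1.23) or 2 (-1.30). For 20 members the CD8+ arrays both lay above the CD4+ arrays and for 7 both below, as for 32.3% and 24.5% of all genes. By group means, CD8+ TEM cells had the highest level of 20 members, CD4+ memory cells of 10 and CD4+ TEM cells of 4. These ranks take no account of the spread, and some rest on close means, as for *Pcna* with 12.61 in CD8+ TEM and 12.55 in memory cells. The shares of all genes with such ranks were not computed.

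Naïve CD8+ cells started from a higher level of several members than naïve CD4+ cells. Of the 37 measured 12 were called higher and 3 lower, where 13.9% of all genes were called higher and 6.65% lower. Among genes with a mean of at least 6 over the arrays, 17 of 36 members were called in either direction, against 41.5% of such genes. With a filter for probe sets that vary between arrays it was 12 of 31, against 41.1%. By these shares the members were called about as often as other genes. The largest differences were those of *Pole* (2.24, adjusted p = 0.000593) and *Brca1* (2.18, adjusted p = 0.00522), both dim in naïve CD4+ cells, *Cdt1* (1.59, adjusted p = 0.0024) and *Pold1* (1.5, adjusted p = 0.00136), and the others were *Chaf1b*, *Mcm7*, *Orc6*, *Pole2*, *Prim1*, *Rfc3*, *Rpa2* and *Tk1*. Lower in naïve CD8+ cells were *Orc1* (-1.77, again for the probe set used), *Mcm4* (-0.84) and *Cdc45* (-0.73, dim in both groups). Naïve CD4+ cells had the lowest mean of 27 members, a rank for which the share of all genes was not computed. Many of the smaller calls rest on single arrays: 8 members were called without naïve CD4+ replicate 1, 9 without naïve CD4+ replicate 2, 11 without naïve CD8+ replicate 1 and 12 without naïve CD8+ replicate 2. *Pole*, *Brca1*, *Cdt1*, *Pold1*, *Prim1* and *Mcm7* were called each time.

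The CD4+ change from naïve to TEM less the CD8+ change was called for 7 members, 5 positive and 2 negative, against 8.03% and 4.49% of all genes. Among genes with a mean of at least 6 over the arrays, 8 of 36 members were called, against 26.3% of such genes. With a filter for probe sets that vary between arrays it was 7 of 31, against 28.2%. By these shares the members were called no more often than other genes. *Brca1* (2.72, SE 0.53, adjusted p = 0.0157), *Cdt1* (1.98, SE 0.33, adjusted p = 0.00827), *Pold1* (1.73, SE 0.27, adjusted p = 0.00661), *Pole* (1.69, SE 0.33, adjusted p = 0.0155) and *Prim1* (0.85, SE 0.19, adjusted p = 0.0238) gained more in CD4+ cells. The *Prim1* difference rests on the probe set used, since a second one rose by 1.18 in CD4+ and 1.12 in CD8+ TEM cells. *Cdc45* (-1.22, SE 0.29, adjusted p = 0.0314) and *Dut* (-1.01, SE 0.20, adjusted p = 0.0166) gained more in CD8+ cells. Both are values of the probe set used. A second *Cdc45* probe set changed by 0.02 in CD4+ and -0.03 in CD8+ TEM cells, neither called. A second *Dut* probe set rose by 1.32 and 1.81, both called. Side by side, the 5 positive genes were each called higher in naïve CD8+ than in naïve CD4+ cells, by 1.07 to 2.24, while their TEM levels differed by -0.54 to 0.54 with no call. *Dut* shows the reverse, with naïve levels 0.15 apart (not called) and the TEM level 0.86 higher in CD8+ cells. For *Cdc45* the TEM levels differed by 0.49 with no call, and the naïve signals, -0.73 apart, are dim in both groups.

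**Figure D4:**
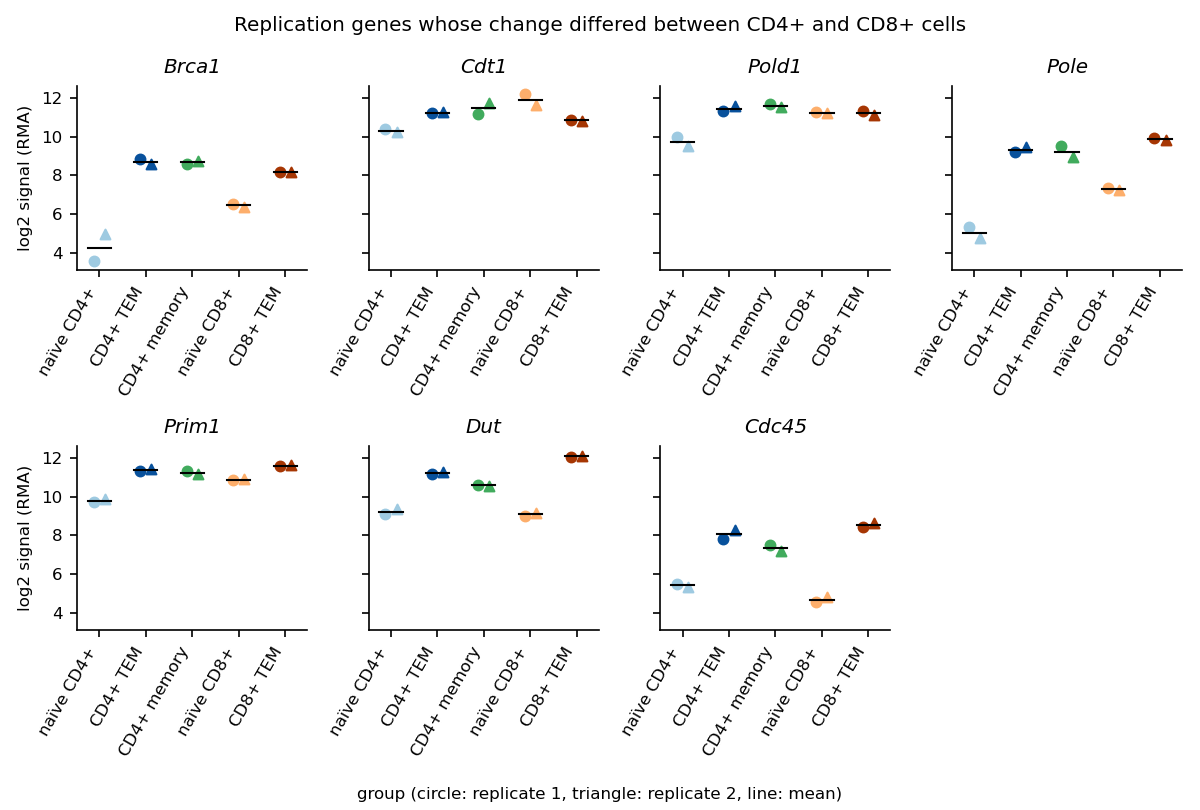
Log2 signals are shown by group for the 7 members whose change differed between CD4+ and CD8+ cells, with circles for replicate 1, triangles for replicate 2 and a line at the mean. For *Brca1*, *Cdt1*, *Pold1*, *Pole* and *Prim1* the naïve CD8+ arrays lie above the naïve CD4+ arrays, and for *Dut* the TEM groups differ.

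The differences for *Cdt1* and *Pold1* kept their call in all 19 alternatives, including each array left out, with values of 1.19 to 2.26 and 1.11 to 1.97. The other 5 did not: 3 members were called without naïve CD4+ replicate 2 or without CD4+ TEM replicate 1, 5 without naïve CD4+ replicate 1 or CD4+ TEM replicate 2, and 2 without either CD8+ TEM array. Without naïve CD8+ replicate 2 there were 9, with *Cdc6* (2.50) and *Orc6* (0.91) added, and without naïve CD8+ replicate 1 there were 6, with *Orc1* (-2.61) added and *Brca1* (2.63) and *Cdc45* (-1.10) lost. Averaged over its probe sets, the *Brca1* difference was 0.39 and not called. Dimmer *Brca1* probe sets went the other way, with 0.58 and 0.54 in CD4+ TEM and 1.0 and 1.21 in CD8+ TEM cells. The difference for *Brca1* thus rests on the probe set used.

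The median gap between the arrays of a group was 0.08 (CD8+ TEM) to 0.24 (naïve CD8+), and 7 of the pairs were at least 2-fold apart: *Brca1* and *Gins1* in naïve CD4+, *Rfc4* and *Pole2* in memory, and *Cdc6*, *Orc1* and *Gmnn* in naïve CD8+ cells. The licensing genes averaged 9.04 on naïve CD8+ replicate 1 and 7.47 on replicate 2, while the MCM subunits averaged 10.15 and 9.91 and the nucleotide supply genes 6.81 and 6.87. Of the 7 roles, licensing had the widest gap between these 2 arrays. All 37 members averaged 7.91 and 7.95 in naïve CD4+, 9.68 and 9.68 in CD4+ TEM, 9.63 and 9.46 in memory, 8.47 and 8.25 in naïve CD8+ and 9.85 and 9.89 in CD8+ TEM cells.

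The 12 members with an E2F type match in their promoter window had a median change of 1.51 in CD4+ TEM, 1.53 in memory and 1.32 in CD8+ TEM cells, and the 19 measured members with a window but no match had 1.44, 1.26 and 1.07. Of these, 10 and 13 were called higher in CD4+ TEM cells. The medians were not tested against each other. *Tk1* and *Rrm2* have no E2F type match in their windows.

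Related genes outside the 38 moved in part with them. Of 36 other replication factors 15 were called higher and 4 lower in CD4+ TEM cells, 12 and 4 in memory cells and 13 and 5 in CD8+ TEM cells, with medians of 0.52, 0.40 and 0.31. *Clspn*, an adaptor of the replication checkpoint, rose most in CD4+ TEM cells (4.7), followed by the nuclease and helicase *Dna2* (3.20), the PCNA unloading factor *Atad5* (2.93) and *Mcm8* (2.09). *Mcmbp*, an MCM binding protein, fell in all 3 groups (-1.26, -0.90 and -1.23). Of 22 regulators of E2F and the G1/S transition 13 were called higher in CD4+ TEM, 12 in memory and 16 in CD8+ TEM cells, and 1, *Rbl2* in memory cells, lower. They include cyclin A (*Ccna2*, 5.76 in CD4+ TEM cells) and the E2F factors *E2f8* (5.30) and *E2f1* (3.72), as well as *Cdk6* (4.14).

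Of 20 measured genes of S-phase repair and chromatin 11, 12 and 9 were called higher in CD4+ TEM, memory and CD8+ TEM cells, and 1, *Atrip* in CD8+ TEM cells, lower. Those called in CD4+ TEM cells include *Uhrf1*, needed to copy DNA methylation (3.61), the exonuclease *Exo1* (2.66) and *Brca2* (2.65). The other 14 measured genes of nucleotide metabolism moved in both directions: 4 were called higher and 3 lower in CD4+ TEM cells, 2 and 2 in memory cells and 6 and 2 in CD8+ TEM cells, with medians of -0.11, -0.23 and 0.47. The deoxynucleotide enzymes *Dtymk* and *Rrm2b* are among the 3 lower ones (-0.81 and -0.66), and *Ctps*, CTP synthase, was the highest (0.89). All 9 measured markers of dividing cells were called higher in each of the 3 groups, with medians of 4.7, 4.87 and 4.99, and *Ccnb2* and *Cdk1*, which drive mitosis, rose by 6.22 and 6.06 in CD4+ TEM cells.

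**Figure D5:**
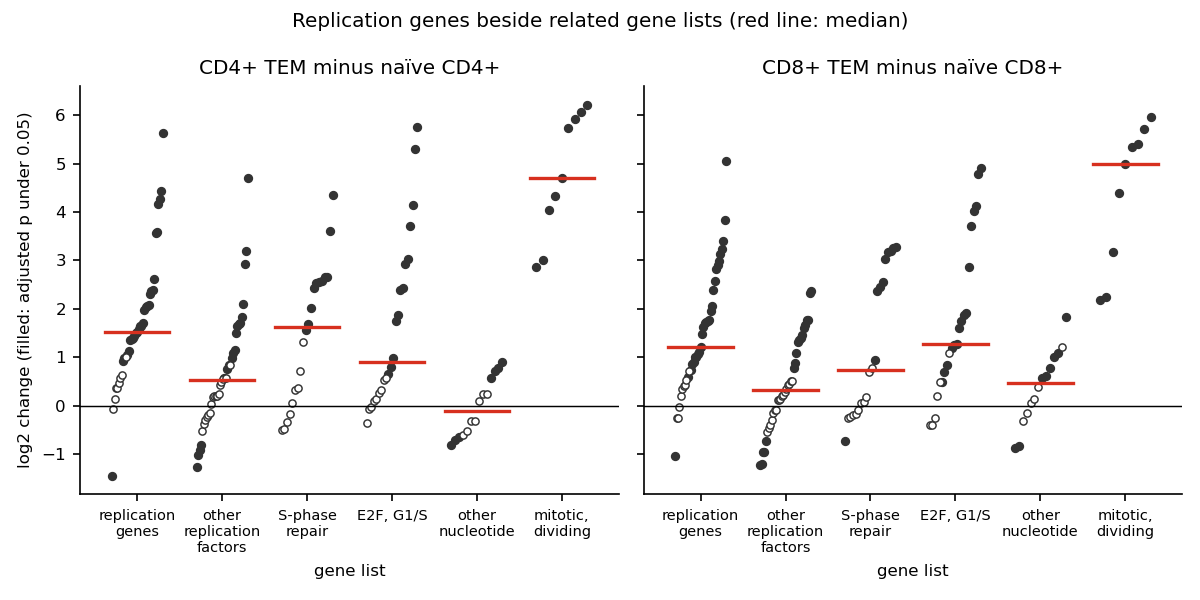
Each point is the log2 change of a gene in CD4+ TEM (left) or CD8+ TEM cells (right) against the naïve cells of the same lineage, filled where adjusted p is under 0.05, with a red line at the median of each list. The replication genes have medians of 1.52 and 1.21, the other nucleotide genes -0.11 and 0.47, and the markers of dividing cells 4.7 and 4.99.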

How the data were processed

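RNA of 10 samples was hybridised to Affymetrix mouse arrays, 2 for each of 5 groups. The authors normalized them by RMA in BRB-ArrayTools (version not given in the sources used here), and the deposited table holds log2 values of 45101 probe sets, from 1.68 to 14.86. Groups were taken from the sample source names. The labels also give *Foxo1* genotypes, unlike within a group, mention germinal center B cells and, in the series design, an edited lymphoma line, and these were not used.

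Of the probe sets 34945 have 1 gene symbol in the platform annotation, and 9160 unnamed ones and 932 with several symbols were left out, as were 64 controls. A gene is its brightest probe set by mean, which leaves 18193 genes. A model with a mean for each group was fitted to the 10 arrays (limma 3.58.1, statmod 1.5.0, R 4.3.3) with 5 residual degrees of freedom, empirical Bayes moderation and Benjamini-Hochberg adjustment. A pair with a wide spread in any group therefore widens the standard errors of that gene in all comparisons. Confidence intervals are 95% and per gene. The number of arrays limits the precision. Tests were checked on simulated data. Figures used matplotlib 3.10.9 and promoters the RefSeq table of GRCm38.p6.

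The members and gene lists were chosen with earlier results of these data known. All members may be named, and of each other list up to 4 called genes with the largest change (per comparison), *Rbl2*, *Atrip*, *Pax5*, *Ebf1*, *Cd2*, *Cd5* and *Cd247* excepted, which were chosen after their values were seen. The B cell, T cell, myeloid, erythroid and NK marker lists serve as checks. Alternatives were other probe sets, filters, scalings, moderation, the replicate number as a block, the groups of a comparison alone, and each array left out.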

Additional observations from a re-analysis of the deposited data

Results flagged for a closer look

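The change from naïve to TEM cells differed between CD4+ and CD8+ cells, by limma's test of the difference itself with an adjusted p under 0.05, for 7 of 37 replication genes (5 positive and 2 negative), against 8.03% and 4.49% of all genes. Among genes with a mean of at least 6 over the arrays it was 8 of 36 members, against 26.3% of such genes, so the count does not set the members apart. *Cdt1* differed by 1.98 on the log2 scale and was called in both lineages in opposite directions, though the CD4+ call was lost without any 1 of the 4 CD4+ arrays. *Pold1* differed by 1.73, *Pole* by 1.69, *Brca1* by 2.72 and *Prim1* by 0.85, each with the larger increase in CD4+ cells. A second *Prim1* probe set rose by 1.18 in CD4+ and 1.12 in CD8+ TEM cells. *Dut* differed by -1.01 and *Cdc45* by -1.22, with the larger increase in CD8+ cells. A second *Dut* probe set rose by 1.32 in CD4+ and 1.81 in CD8+ TEM cells, and a second *Cdc45* probe set changed by 0.02 and -0.03. With single arrays left out, 2 to 9 members were called, and the *Cdt1* and *Pold1* differences were called each time and the other 5 not. Averaged over its probe sets, *Brca1* differed by 0.39 and was not called. Dimmer *Brca1* probe sets rose less in CD4+ TEM (0.58 and 0.54) than in CD8+ TEM cells (1.0 and 1.21). B cell markers and RNA quality also differ between the naïve groups, with gaps between the 3′ and 5′ *Gapdh* probe sets of 2.49 and 2.42 in CD4+ and 2.75 and 2.67 in CD8+ cells, and their part in these differences was not tested.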

How the results depend on the processing

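The counts of members called against naïve cells were within 1.5 times the reported ones in every alternative run, and ranged over single arrays left out from 26 to 27 (29 reported) in CD4+ TEM, 26 to 30 (31) in memory and 24 to 30 (28) in CD8+ TEM cells. The smaller comparisons moved more. For CD4+ TEM against memory cells, 1 member was called, and 0 averaging a gene's probe sets, with probe sets that match 1 transcript only, with the most variable probe set, with the variation filter, with median centring, with quantile normalization, with the replicate block, with a 2-fold limit added and with only the groups compared, 2 with an intensity trend and robust prior, and 0 to 1 with single arrays left out. For CD8+ against CD4+ TEM cells, 4 were called, and 7 with the most variable probe set, 1 with the replicate block, 1 with a 2-fold limit, and 0 to 1 with single arrays left out. For naïve CD8+ against naïve CD4+ cells, 15 were called, and 8 with a 2-fold limit, 7 with only the groups compared and 8 to 12 with single arrays left out. For the difference between the CD4+ and CD8+ changes, 7 were called, 2 to 9 with single arrays left out and 7 with the replicate block. The causes of these shifts were not tested. Same-numbered arrays do not deviate together (correlations of -0.04 to 0.03 over 10 pairs of groups), which cannot show whether they were paired in the experiment. The titles number the arrays without stating a pairing, so the block is given as an alternative only.

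Where a value was called in either setting, its direction turned only with the choice of probe set or with the variation filter, which changes that choice. *Orc1* changed by 0.67 with the mean of its probe sets and 2.78 with the most variable one in CD4+ TEM cells, by 0.28 in memory cells and by 0.66 between the naïve groups with the latter. *Pold1* in CD8+ TEM cells changed by 0.68 with the most variable or the single-transcript probe set. *Rpa2* in memory cells changed by -0.15 with the mean and -0.81 with the most variable probe set or the variation filter, which gave -0.18 between the naïve groups. *Rrm1* was -0.84 between the naïve groups on averaging its probe sets. Of all values recomputed for single members and counts, 3522 kept direction and call, 194 lost a call, 72 gained 1, 156 moved and 12 turned. The 2 arrays of each group set the precision.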
